A study of Mus musculus with 6 samples.

Results

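The genes described here are 10 genes for secreted and membrane-bound proteases of the extracellular matrix and their inhibitors: the Adamts genes Adamts1 and Adamts5, the matrix metalloproteinase genes Mmp2, Mmp3, Mmp9, Mmp13 and Mmp14, and the inhibitor genes Timp1, Timp2 and Timp3. They are 10 of the 53465 gene identifiers in the table, and all 10 were found by symbol. They were chosen by family and with the fold changes of this comparison known, Adamts1 having been among its called genes, so the values of these 10 genes are given as a description.

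RNA was taken from EMT6 cells, a mouse mammary carcinoma line grown without other cell types. For 3 samples the medium held an isotype control antibody ("Parental" in the labels, P-VITRO in the study). For the other 3 it held anti-PD-L1, which binds the checkpoint ligand that tumor cells carry ("Resistant", PTR-VITRO). Both antibodies were used at 0.5 μg/ml for more than 4 weeks. No animal or immune cell was part of this culture model, and all samples derive from 1 cell line. The labels give no batch and do not say whether replicates were separate cultures. The study calls its replicates technical where it does not state otherwise, and it does not state otherwise for the RNA sequencing of this culture model, so p-values measure only the spread between these samples.

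Proteases of the ADAMTS and MMP families are zinc enzymes that are made as inactive precursors and cut the proteins and proteoglycans around a cell. ADAMTS enzymes are secreted and carry thrombospondin repeats, and several of them cut large proteoglycans such as versican. MMPs include collagenases, gelatinases and stromelysins, and in tumors they are known for remodelling the matrix and releasing growth factors. TIMPs are small secreted proteins that bind the active site of many of these enzymes and block it, and they differ in which enzymes they block. Tumor cells and the surrounding stroma can both make members of each family.

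Libraries held 17757341 to 32426739 counts, and a count of 3, taken as the floor, equalled 0.0925 to 0.168 CPM, the count scaled to a common library size with upper-quartile factors. Such floors cover counting error only. Of 14217 genes tested with edgeR, 35 had an adjusted p below 0.05 and are called, 14 higher and 21 lower with anti-PD-L1. Of the epithelial markers, Krt8 was at 1077 ± 48.7 CPM and Krt18 at 489.0 ± 14.6 CPM, and the mesenchymal gene Vim was at 1889 ± 23.7 CPM in the isotype samples (SD, n = 3), while Krt14 was at 8.76 ± 0.422 CPM, Krt5 had a mean count of 2.00 and Cdh1, which encodes E-cadherin, was at 0 to 0.0414 CPM over all 6 samples. The leukocyte markers Ptprc and Adgre1 and the endothelial marker Emcn had a count of 0 in every library, while Cd68 had 202 to 419 counts, Lyz2 6 to 16, Pecam1 1 to 4 and Tek 1 to 5.

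Promoter sequence is shown first for 3 genes on which the results below turn: Adamts1, the only member called, and Mmp13 and Mmp3, members of one gene cluster of which the first had 8016 counts over the 6 libraries and the second 12. Each run is the 100 bases before the RefSeq start (assembly GRCm38.p6), written 5′ to 3′ on the strand of the gene. Capitals mark TATAAA in Adamts1 and TGANTCA, the letters bound by AP-1 factors, in the Mmp genes. Adamts1 lies at chr16:85803114-85803213 on the minus strand, Mmp13 at chr9:7272414-7272513 and Mmp3 at chr9:7445722-7445821, both on the plus strand.
Adamts1: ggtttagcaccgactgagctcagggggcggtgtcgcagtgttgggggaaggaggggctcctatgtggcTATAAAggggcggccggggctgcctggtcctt
Mmp13: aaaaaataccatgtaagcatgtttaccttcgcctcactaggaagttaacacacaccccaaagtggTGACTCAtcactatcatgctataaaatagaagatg
Mmp3: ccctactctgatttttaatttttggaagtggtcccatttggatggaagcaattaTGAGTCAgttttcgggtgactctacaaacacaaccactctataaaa

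The letters TGANTCA, which read alike on both strands, begin 35 bases before the start of Mmp13 and 46 bases before that of Mmp3. They occurred in the 250 bases before the start in 6.75% of 32851 promoters of the RefSeq table. RefSeq promoters were matched for 7 of the 10 genes, all but Adamts5, Mmp2 and Mmp9, and TGANTCA was found in 2 of these, Mmp3 and Mmp13. TATAAA on the gene's strand, which begins 32 bases before the start of Adamts1, was found in 3, Adamts1, Mmp3 and Mmp13, and in 7.59% of all promoters. The GC box GGGCGG, read on both strands, was found in 5, Adamts1, Mmp14, Timp1, Timp2 and Timp3, and in 32.7% of all promoters. The TEAD letters GGAATG on either strand were found only in Timp1, 247 bases before the start, and in 12.6% of all promoters. A match of letters is a description and does not show a bound site.

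Adamts1 (ENSMUSG00000022893.14, GRCm38, chromosome 16, 85793827 to 85803113) encodes a secreted protease that cuts versican and thrombospondins 1 and 2. It was at 143.5, 145.5 and 144.8 CPM in the isotype samples and at 109.9, 115.2 and 109.6 CPM in the anti-PD-L1 samples. Every anti-PD-L1 sample lay below every isotype sample, and the gap between the groups was several times the range within either. The log2 fold change was -0.37 (SE 0.0371, 95% interval -0.46 to -0.29), a change of -22.8%. The coefficient of variation was 0.720% over the 3 isotype samples and 2.83% over the 3 anti-PD-L1 samples. Counting error alone is larger than 0.720% at these counts, so that value does not measure how alike the samples were. Counts behind these values ran from 1953 to 4359.

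**Figure D1:**
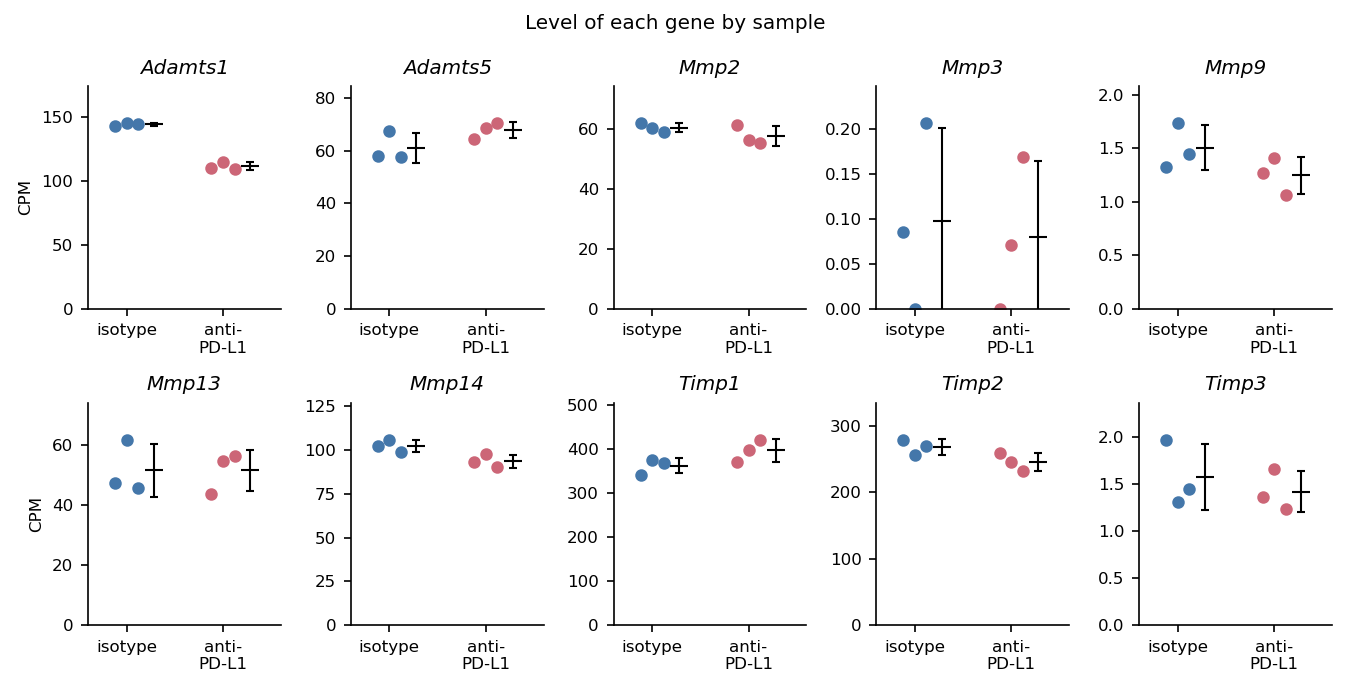
Level of each of the 10 genes in CPM (linear axis from 0) in the 3 isotype (blue) and 3 anti-PD-L1 (red) samples, with the mean and SD in black. For Adamts1 the isotype points lie at 143.5 to 145.5 CPM and the anti-PD-L1 points at 109.6 to 115.2 CPM. Mmp14 is the other gene whose groups do not overlap, and Mmp3 stays at or near 0, where its SD bar is clipped at the axis.

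Adamts5 (ENSMUSG00000022894.5, chromosome 16, 85856173 to 85901828) is the nearest family neighbour of Adamts1, 53.1 kb away on the same strand, and encodes an enzyme known for cutting aggrecan and versican. It had 58.1, 67.5 and 57.5 CPM with isotype and 64.7, 68.8 and 70.6 CPM with anti-PD-L1. The high isotype sample, replicate 2, lay within the anti-PD-L1 range, so the groups overlapped. The log2 fold change was 0.15 (SE 0.0635), opposite in sign to that of Adamts1, and 0.23 without isotype replicate 2. Set against each other per length (CPM per kb of merged exons), Adamts1 exceeded Adamts5 5.03, 4.39 and 5.13 times in the isotype samples and 3.46, 3.41 and 3.16 times in the anti-PD-L1 samples. The 2 sets of ratios did not overlap.

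Mmp14 (ENSMUSG00000000957.11, chromosome 14, 54431612 to 54445364) encodes a membrane-anchored protease that activates the precursor of MMP2 at the cell surface. It was at 102.4, 106.0 and 98.9 CPM with isotype and at 92.9, 97.6 and 90.3 CPM with anti-PD-L1. The groups did not overlap, but the highest anti-PD-L1 sample and the lowest isotype sample lay close together. The log2 fold change was -0.13 (SE 0.0441), a change of -8.58%.

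Mmp2 (ENSMUSG00000031740.8, chromosome 8, 92827291 to 92853420), which encodes gelatinase A, had 62.1, 60.3 and 59.2 CPM with isotype and 61.6, 56.3 and 55.3 CPM with anti-PD-L1. The groups overlapped through anti-PD-L1 replicate 1, and the log2 fold change was -0.06 (SE 0.0492). It was -0.11 without anti-PD-L1 replicate 1, -0.04 without isotype replicate 1 or anti-PD-L1 replicate 2 and -0.03 without anti-PD-L1 replicate 3. Mmp9 (ENSMUSG00000017737.2, chromosome 2, 164940780 to 164955850), which encodes gelatinase B, was low, with 1.33, 1.74 and 1.45 CPM against 1.26, 1.41 and 1.07 CPM, from 19 to 52 counts a library. At this depth its 95% interval reached from -0.74 to 0.22 on the log2 scale, which includes both no change and a difference as large as that of Adamts1. Its log2 fold change was -0.26 (SE 0.216), and -0.13 without isotype replicate 2.

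Mmp13 (ENSMUSG00000050578.10, chromosome 9, 7272514 to 7283331) encodes a collagenase. It was at 47.2, 61.7 and 45.6 CPM with isotype and at 43.6, 54.6 and 56.1 CPM with anti-PD-L1. Isotype replicate 2 deviated from its group mean by 19.7% and anti-PD-L1 replicate 1 from its own by -15.3%, and the groups overlapped. The log2 fold change was -0.02 (SE 0.117). With isotype replicate 2 left out it became 0.14, and with anti-PD-L1 replicate 1 left out 0.10, while it was -0.09 without isotype replicate 3 and -0.07 without any other single library. The edgeR estimate of variation beyond counting, a biological coefficient of variation, is drawn toward the value fitted for genes of like abundance. For Mmp13 it was 9.85%, above the fitted 4.39%, and for Adamts1 it was 3.52%, below the fitted 4.43%. It is not a spread measured in the samples.

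Mmp3 (ENSMUSG00000043613.8, chromosome 9, 7445822 to 7455975), which encodes stromelysin-1, had counts of 2, 0 and 5 with isotype and 0, 2 and 3 with anti-PD-L1. Its mean count of 2.00 was under the floor of 3, it was removed by the filter on low counts, and no fold change is given. A difference in Mmp3 was not detectable at this depth.

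Mmp3 and Mmp13 lie in a cluster of 10 Mmp genes on chromosome 9 that spans less than 500 kb. Mmp13 had 8016 counts over the 6 libraries, while the highest count of any of the other 9 genes in any library was 5. Among these 9, Mmp1a, Mmp7, Mmp8, Mmp20 and Mmp27 had a count of 0 in all 6 libraries, and Mmp10 had the largest sum, 15 counts. TGANTCA stood in a promoter of 8 of the 10 genes of the cluster, the transcribed Mmp13 and 7 others at or near 0, and TATAAA in 7 of the 10. The RefSeq tables held a promoter for each of the 10.

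**Figure D2:**
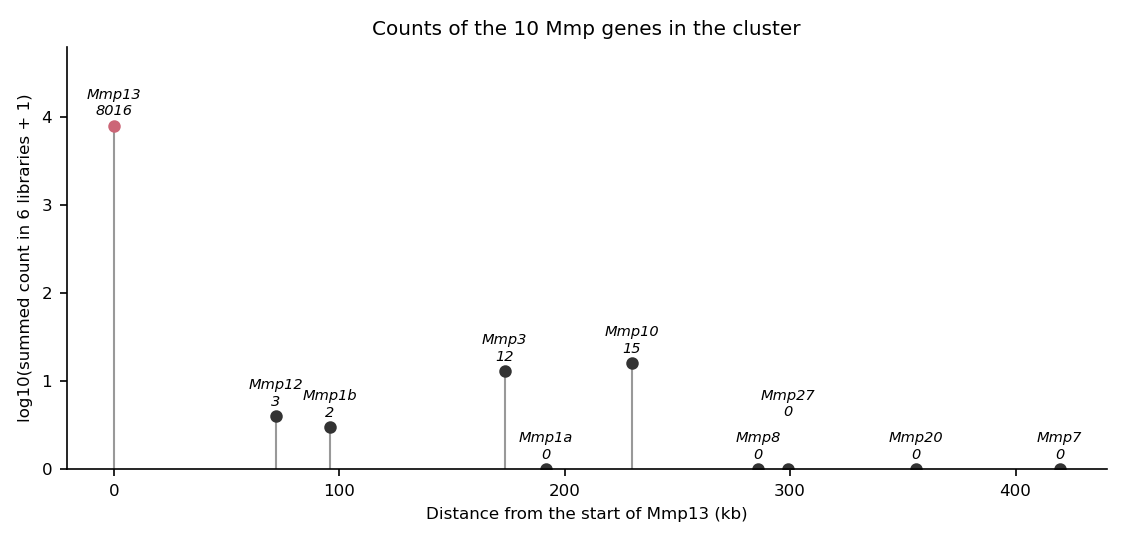
Counts of the 10 Mmp genes of the chromosome 9 cluster, summed over the 6 libraries and drawn as log10(count + 1), against the distance of each gene's lower coordinate from that of Mmp13 in kb; the number under each name is the summed count. Mmp13, in red, has 8016 counts and the others have 0 to 15.

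Timp1 (ENSMUSG00000001131.11, chromosome X, 20870166 to 20874735) encodes an inhibitor of most secreted MMPs and was the most abundant of the 10 transcripts. It had 341.9, 374.1 and 368.9 CPM with isotype and 370.7, 397.7 and 421.4 CPM with anti-PD-L1. The groups overlapped, since anti-PD-L1 replicate 1 lay below isotype replicate 2. The log2 fold change was 0.13 (SE 0.0502). The span of Timp1 overlaps that of Syn1 on the opposite strand, and whether they share reads was not tested. Syn1 had 2.58 CPM with isotype and 3.14 CPM with anti-PD-L1.

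Timp2 (ENSMUSG00000017466.9, chromosome 11, 118301069 to 118355740) encodes an inhibitor that also links the MMP2 precursor to MMP14. It had 279.5, 256.2 and 269.1 CPM with isotype and 259.8, 246.0 and 231.4 CPM with anti-PD-L1, with groups that overlapped and a log2 fold change of -0.12 (SE 0.0479), which was -0.08 without anti-PD-L1 replicate 3. The ratio of Timp2 to Mmp14 per length was 4.01 ± 0.272 with isotype and 4.02 ± 0.227 with anti-PD-L1 (SD, n = 3). Timp3 (ENSMUSG00000020044.13, chromosome 10, 86300372 to 86349506) encodes a matrix-bound inhibitor that also acts on ADAMTS enzymes. It was near the lower end of what could be tested, with 46, 39 and 35 counts against 44, 47 and 22 counts, and the groups overlapped on the CPM scale. Its log2 fold change of -0.12 had an SE of 0.231. It was 0.07 and -0.25 without isotype replicates 1 and 2, and -0.08, -0.26 and -0.05 without anti-PD-L1 replicates 1, 2 and 3. The spans of Timp2 and Timp3 overlap those of Cep295nl, at 1.82 and 1.77 CPM, and Syn3, at 0.266 and 0.190 CPM.

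Of the 10 genes, 9 passed the filter on low counts, and 1 of these, Adamts1, was called by edgeR at an adjusted p below 0.05, where 0.246% of all tested genes were called. The groups did not overlap for 2 of the 9, Adamts1 and Mmp14, both lower with anti-PD-L1, where 17.6% of all tested genes had groups that do not overlap. The 9 log2 fold changes ran from -0.37 to 0.15 with a median of -0.12, and 7 were negative, beside a median of -0.0040 over all tested genes. Nothing is read from these counts, since the genes were chosen with this contrast known.

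Per length, the order of the transcripts with isotype was Timp1 (407.2 ± 19.5 CPM per kb), Timp2 (68.9 ± 2.99), Adamts1 (27.3 ± 0.196), Mmp13 (19.3 ± 3.31), Mmp2 (18.0 ± 0.435), Mmp14 (17.2 ± 0.594), Adamts5 (5.66 ± 0.521), Mmp9 (0.425 ± 0.0593), Timp3 (0.193 ± 0.0431) and Mmp3 (0.0541 ± 0.0577). The same order held with anti-PD-L1. With isotype, the ranges of Mmp13 and Mmp2 and of Mmp2 and Mmp14 overlapped, and those of all other neighbours were separate. With anti-PD-L1, Adamts1 was at 21.1 ± 0.596 CPM per kb and its range overlapped that of Mmp13, the ranges of Mmp13 and Mmp2 overlapped, and those of Mmp2 and Mmp14 did not. Merged exons of every annotated isoform were used, so a gene whose cells use a short isoform is placed too low.

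**Figure D3:**
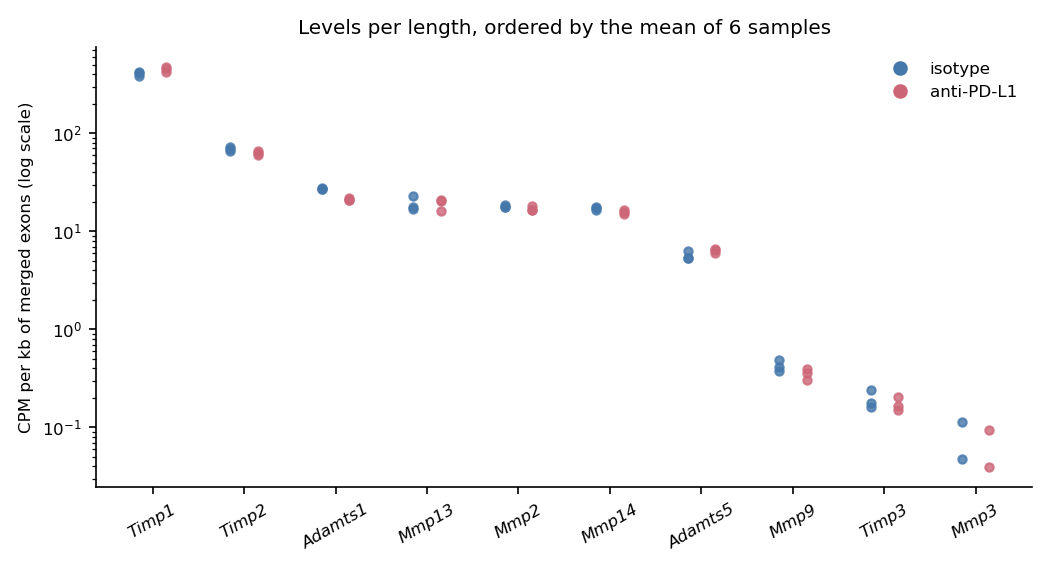
CPM per kb of merged exons on a log axis for the 10 genes, ordered by their mean over 6 samples, with isotype in blue and anti-PD-L1 in red, 1 point per sample; the 2 samples with a Mmp3 count of 0 cannot be drawn on this axis. Timp1 stands 5.91-fold above Timp2 with isotype, and Adamts1, Mmp13, Mmp2 and Mmp14 lie close together.

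Summed per length, the 7 protease genes came to 86.1, 92.9 and 84.4 CPM per kb with isotype and 77.3, 82.0 and 80.2 CPM per kb with anti-PD-L1. The groups did not overlap, and Adamts1 made up 31.1% ± 1.45 of the sum with isotype and 26.4% ± 0.535 with anti-PD-L1 (SD, n = 3). Without Adamts1 the sums were 60.6 ± 4.40 and 58.8 ± 2.00 CPM per kb, and the groups overlapped. The 3 Timp genes summed to 476.3 ± 16.8 CPM per kb with isotype and 509.9 ± 24.9 with anti-PD-L1, of which Timp1 gave 85.5% and 87.6%. The ratio of inhibitor to protease transcripts was 5.31, 5.24 and 5.74 with isotype and 6.27, 6.23 and 6.66 with anti-PD-L1. These did not overlap, but they did once Adamts1 was taken out of the sum, at 7.74, 7.44 and 8.49 against 8.57, 8.48 and 8.98. The ratio of transcripts does not give the balance of active enzyme and inhibitor.

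The genes whose log2 CPM over the 6 samples followed that of Adamts1 most closely, among 9211 genes with a mean of at least 10 CPM, were Ice1 (Pearson r 0.996), Thbs2 (0.995), Rcc2 (0.993), Ankrd11 (0.991) and Smarca4 (0.990). These r values are a description over 6 samples in 2 groups, for genes measured in the same libraries, and they include the group difference with which Adamts1 was chosen. Ice1 differed by only -0.09 on the log2 scale, from 59.2 ± 0.206 to 55.5 ± 0.362 CPM, while Thbs2 differed by -0.35, from 63.3 ± 0.327 to 49.7 ± 0.647 CPM, a size near that of Adamts1.

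The rest of the protease system was read from lists of related genes. Of 22 other Adamts and Adamtsl genes, 8 were tested, 8 had a count of 0 in all 6 libraries, and none was called by edgeR (adjusted p 0.324 to 0.968) or DESeq2, 1 having an unadjusted p below 0.05 where 11.4% of all tested genes did. DESeq2 called 0.946% of the genes to which it gave an adjusted p, and it gave none to some genes of low count, Mmp9, Timp3 and Mmp23 among them. The median log2 fold change of the 8 was -0.05. Adamtsl3, which encodes a matrix protein related to ADAMTS enzymes but without a protease domain, was the most abundant per length, at 79.5 ± 3.37 CPM with isotype and 79.3 ± 2.49 CPM with anti-PD-L1. Adamts4, another aggrecan-cutting protease, had 29.4 ± 2.70 and 27.7 ± 0.500 CPM. Adamts14, a protease that trims procollagens, had the smallest p of the list, at 15.4 ± 0.515 and 13.5 ± 0.594 CPM, a log2 fold change of -0.18 with an SE of 0.0686.

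Of 18 other Mmp genes, 5 were tested, 8 had a count of 0 in all 6 libraries, and none was called (edgeR adjusted p 0.299 to 0.858, and 0 by DESeq2). At an unadjusted p below 0.05, 1 was higher and 1 was lower, beside 11.4% of all tested genes in either direction. The median log2 fold change was 0.08. Mmp19 and Mmp11, the stromelysin-3 gene, were the most abundant per length, with Mmp19 at 48.8 ± 2.91 and 51.6 ± 2.69 CPM and Mmp11 at 19.7 ± 0.462 and 18.6 ± 1.59 CPM. Mmp23 had the smallest p, at 0.893 ± 0.146 CPM with isotype and 1.42 ± 0.176 CPM with anti-PD-L1. Its groups did not overlap, but its log2 fold change of 0.67 (SE 0.233) did not pass the test (edgeR adjusted p 0.299). Mmp28, the lower one, was at 26.0 ± 1.29 and 23.0 ± 1.32 CPM, also without overlap. Its log2 fold change was -0.18 (SE 0.0640, edgeR adjusted p 0.310).

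**Figure D4:**
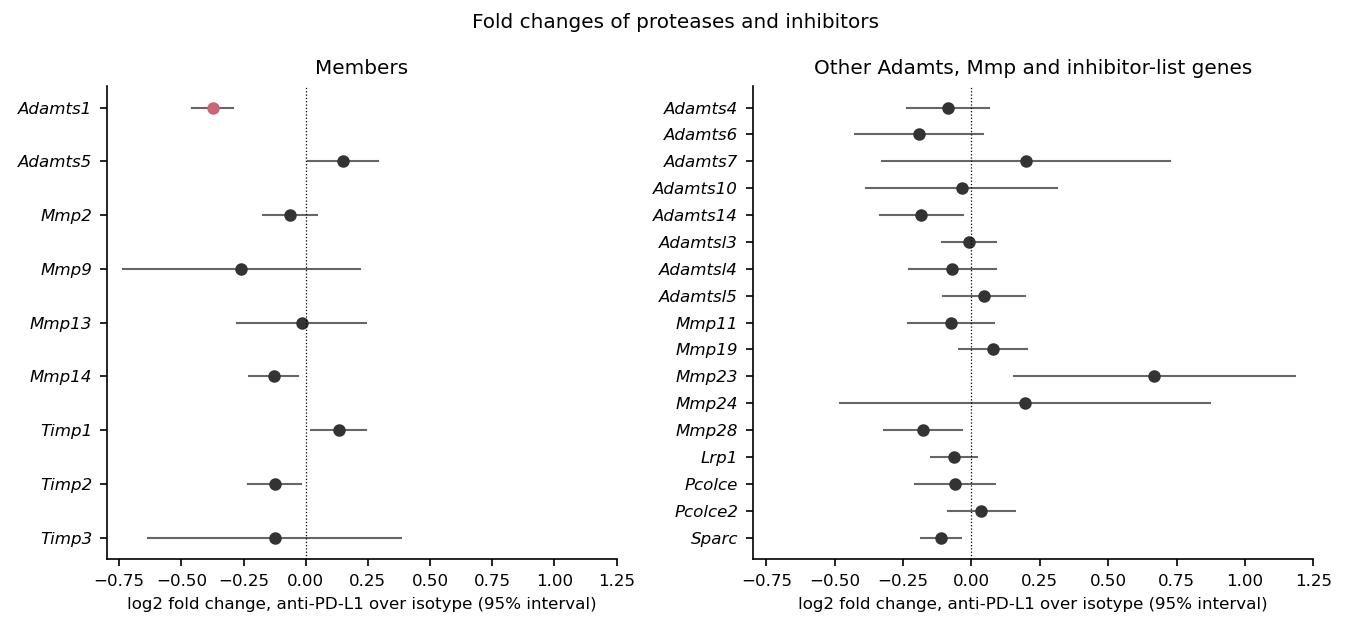
log2 fold change of anti-PD-L1 over isotype with its 95% interval from edgeR for the 9 tested members (left) and for the tested genes of the lists of other Adamts, Mmp and inhibitor genes (right); red marks a call at an adjusted p below 0.05. Adamts1 is the only gene called, at -0.37, and Mmp23 has the highest value, 0.67, with a wide interval.

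Of 11 further genes for inhibitors, clearance receptors and matrix partners of the enzymes, 4 were tested and none was called (edgeR adjusted p 0.227 to 0.859, and 0 by DESeq2). An unadjusted p below 0.05 was found for 1, beside 11.4% of all tested genes. Timp4 had 1 count over all 6 libraries, and Reck, a membrane-anchored inhibitor of MMPs, had a mean count of 6.67 and was not tested. Sparc, a matrix protein bound to collagen, was at 1125 ± 29.6 and 1041 ± 29.3 CPM (log2 difference -0.11), and Pcolce, which aids procollagen trimming, was at 251.2 ± 20.1 and 240.7 ± 20.2 CPM.

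Of 20 genes for activators of the precursors and their control, which include Furin and the plasminogen activator genes, 12 were tested and none was called (edgeR adjusted p 0.524 to 0.973, and 0 by DESeq2) or had an unadjusted p below 0.05. Bsg, an inducer of MMPs, was at 321.2 ± 14.7 and 353.7 ± 50.4 CPM (log2 difference 0.14, and 0.02 without anti-PD-L1 replicate 1), Ctsl at 871.6 ± 21.2 and 884.9 ± 6.86 CPM, and Ctsb, with the smallest p, at 482.2 ± 17.3 and 457.8 ± 18.2 CPM. Ctsl and Ctsb encode lysosomal cathepsins. Plg, the plasminogen gene, had a count of 0 in every library. Of 13 genes for ADAM sheddases and their partners, 8 were tested and none was called (edgeR adjusted p 0.275 to 0.941, and 0 by DESeq2). An unadjusted p below 0.05 was found for 1, beside 11.4% of all tested genes. Adam9, at 175.8 ± 3.25 and 168.8 ± 3.45 CPM, and Adam10, at 139.4 ± 4.89 and 134.1 ± 1.505 CPM, were the most abundant per length, and Adam8 had the smallest p, at 54.9 ± 3.91 and 62.0 ± 2.65 CPM (log2 difference 0.17).

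Of 26 genes for known substrates of these enzymes, 19 were tested and 2 were called, both lower with anti-PD-L1, beside 0.246% of all tested genes. Thbs2, which encodes thrombospondin 2, fell by 0.35 on the log2 scale (SE 0.0385, edgeR adjusted p 0.00529), and Col3a1, which encodes collagen III, fell by 1.13, from 13.4 ± 2.33 to 5.96 ± 1.35 CPM (SE 0.162, adjusted p 0.0196). Without isotype replicate 1 or 3 or anti-PD-L1 replicate 2 or 3 Col3a1 was not called by edgeR (adjusted p 0.0643 to 0.156), at log2 fold changes of -1.11 to -0.9993. The median of the 19 log2 fold changes was -0.12. At an unadjusted p below 0.05, 9 were lower and 1 was higher, beside 11.4% of all tested genes in either direction. The groups did not overlap for 8 lower and 1 higher, beside 17.6% of all tested genes in either direction. Earlier results of these data had already shown matrix genes to be lower, so this list is not independent evidence. Vcan, Thbs1 and Dcn are named after their values were seen. Vcan, the versican gene, was at 180.2 ± 12.8 and 157.6 ± 9.76 CPM (-0.19 on the log2 scale, adjusted p 0.229 from edgeR), Thbs1 at 619.4 ± 48.1 and 518.8 ± 18.4 CPM (-0.26 and 0.0888) and Dcn, the decorin gene, at 42.2 ± 5.78 and 28.2 ± 4.72 CPM (-0.56 and 0.0919). DESeq2 called 5 of the list, adding Thbs1, Dcn and Col1a1, beside 111 genes in all. With a replicate block edgeR called these and Fn1, beside 68 genes in all. Without a filter on low counts it also called Vcan, Col1a2 and Hbegf, beside 400 genes in all. Of these added genes Hbegf was higher with anti-PD-L1, at 586.9 ± 59.4 and 659.3 ± 30.8 CPM (log2 difference 0.17), and the others were lower. The most abundant substrates per length were Spp1, at 8260 ± 158.7 and 7913 ± 39.1 CPM, and Areg, at 957.0 ± 22.8 and 959.7 ± 21.5 CPM, and neither was called. Acan and Bcan, the genes of the proteoglycans aggrecan and brevican, had a count of 0 in every library.

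Among 16 genes for AP-1, ETS and Runx factors and the zinc-finger factor EGR1, all were tested and none was called (edgeR adjusted p 0.170 to 0.997, and 0 by DESeq2). An unadjusted p below 0.05 was found for 2, beside 11.4% of all tested genes, and the median log2 fold change was -0.01. Fosl1 was at 524.8 ± 67.7 and 560.3 ± 21.3 CPM and Egr1 at 849.8 ± 75.3 and 800.7 ± 82.9 CPM. Fosb had the smallest p, at 23.6 ± 1.63 and 18.3 ± 2.24 CPM (log2 difference -0.35).

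The summed levels of the fibroblast and mesenchymal markers were lower with anti-PD-L1, while single members differed in sign. The 6 fibroblast markers summed to 1136 to 1223 CPM with isotype and 964.9 to 1086 CPM with anti-PD-L1, mostly from Col1a1, and the ranges did not overlap. Of these, 4 were tested and none was called by edgeR, with 2 at an unadjusted p below 0.05, beside 11.4% of all tested genes. Dcn and Col1a1, both also in the list of substrates, were called by DESeq2 and by edgeR with a replicate block or without a filter. Pdgfra, which encodes a fibroblast receptor, was at 8.42 ± 1.17 and 9.07 ± 0.896 CPM (log2 difference 0.10), and the other 3 had negative values. Lum had a count of 0 in every library and Dpt had 1 count in all. The 6 mesenchymal markers summed to 9731 to 10520 CPM and 8969 to 9379 CPM, mostly from Fn1, the fibronectin gene, again without overlap. Of the 5 tested, none was called by edgeR or DESeq2, though Fn1 was by edgeR with a replicate block or without a filter. At an unadjusted p below 0.05, 3 were lower, beside 11.4% of all tested genes in either direction. The log2 differences of the other 2, Vim (0.0009) and S100a4 (0.06), were positive. The 8 epithelial markers went the other way in part. Of the 5 tested, 4 had positive log2 fold changes and none was called by edgeR. At an unadjusted p below 0.05, 2 were higher and 1 was lower, beside 11.4% of all tested genes in either direction. Krt18, at 489.0 ± 14.6 and 549.0 ± 23.1 CPM (log2 difference 0.17), was called by DESeq2 and by edgeR without a filter. Epcam was at 1.59 ± 0.306 and 2.24 ± 0.149 CPM (0.48). Krt14 was the lower one, at 8.76 ± 0.422 and 7.33 ± 0.563 CPM (-0.25). The summed epithelial level was 1541 to 1665 CPM and 1627 to 1707 CPM, and the ranges overlapped. The 9 leukocyte markers summed to 12.5 to 13.8 CPM and 11.7 to 13.5 CPM, mostly from Cd68, and the 5 endothelial markers to at most 0.300 CPM. The part of these differences in the level of Adamts1 was not tested. In these bulk samples, fewer cells that make a transcript and less of it per cell cannot be told apart.

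Adamts1 was called in each of the 13 other fits, in which its log2 fold change ran from -0.40 to -0.36. Its edgeR adjusted p, 0.00386 in the fit used here, ran from 0.00434 to 0.0476 with 1 library left out. The highest of these lay just under the threshold of 0.05. All fits reuse the samples with which Adamts1 was chosen, so they are no further evidence. Adamts5 and Timp1 had positive values and Mmp14 and Timp2 negative values in each of these fits.

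**Figure D5:**
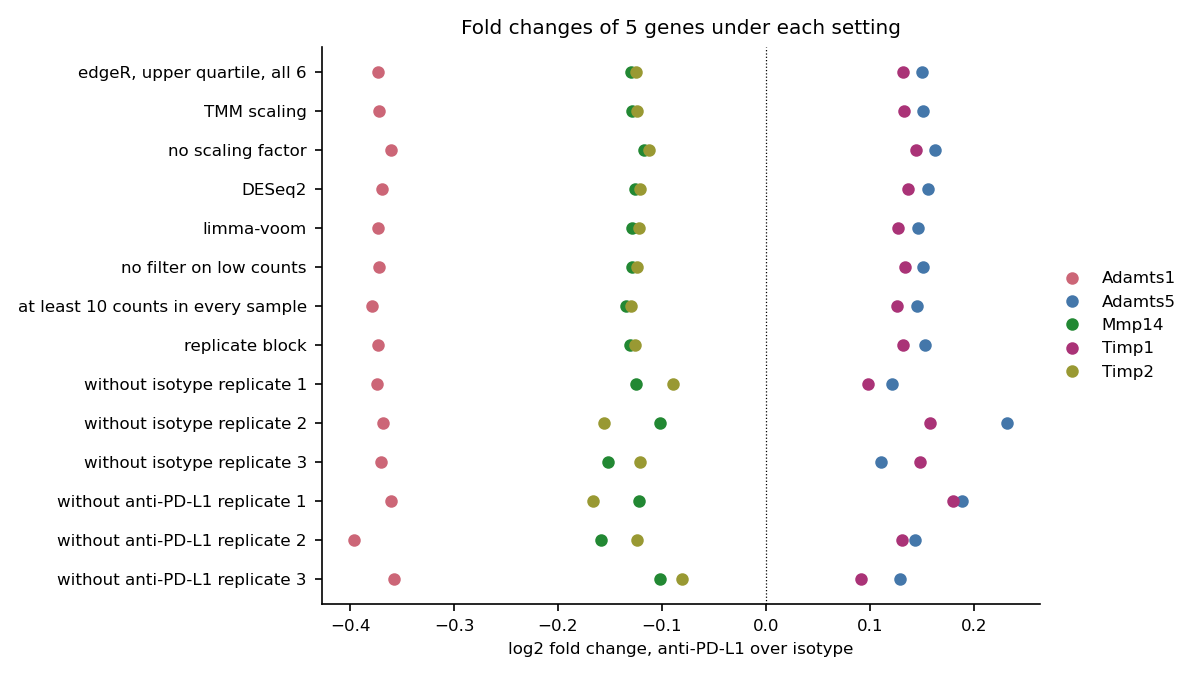
log2 fold change of anti-PD-L1 over isotype for Adamts1, Adamts5, Mmp14, Timp1 and Timp2 in the fit used here (top row) and under 13 other settings. The points of Adamts1 lie between -0.40 and -0.36, and each of the other 4 genes keeps its side of 0.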

How the data were processed

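The authors deposited 1 table of estimated counts per gene (RSEM's expected counts). Per the labels and methods, stranded mRNA libraries were aligned with STAR 2.6.0a to GRCm38 (GENCODE M16) before RSEM 1.3.1 was run, and whether RSEM used the strand is not given in the sources used here. Identifiers were matched to symbols without their version (53274 of 53465) and to GENCODE M21 exons of the same build. Estimated counts were rounded, filtered with filterByExpr (minimum count 10, minimum total 15) and given upper-quartile factors. Anti-PD-L1 was tested against isotype in edgeR 4.0.16 under R 4.3.3 (glmQLFit and glmQLFTest), with Benjamini-Hochberg adjustment over all 14217 tested genes. SEs come from the F statistic. The fit was first tested on simulated data.

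Alternatives were TMM, no scaling factor, DESeq2 1.42.0, limma-voom (limma 3.58.1), other filters, the replicate number as a block and leaving out each sample. The members and lists were chosen with earlier results of these data known. In each list, every called gene, the 2 genes most abundant per length and the gene with the smallest p are named, with the 5 genes most like Adamts1. Other genes were named after their values were seen. Motifs were searched in the 250 bases before each RefSeq start.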

Additional observations from a re-analysis of the deposited data

How the results depend on the processing

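The number of called genes, 35, became 111 with DESeq2, 400 without a filter on low counts, 54 when every sample needed 10 counts, and 68 under a replicate block. It ran from 8 to 64 across the 6 fits that left out 1 library: 11, 64 and 9 without isotype replicates 1, 2 and 3, and 46, 12 and 8 without anti-PD-L1 replicates 1, 2 and 3. Replicate numbers were not taken as pairs, since the labels do not link them and the deviations from the group means correlated at only 0.109, 0.0950 and -0.0556 for numbers 1, 2 and 3, the last not the best match. The number of members called stayed at 1 in each of these fits. Among the related genes 2 were called, which became 5 with DESeq2, 12 without a filter and 6 with the block, and ran from 1 to 4 with 1 library left out, 4 without isotype replicate 2 or anti-PD-L1 replicate 1 and 1 in the other 4 such fits. Col3a1 was not called without isotype replicate 1 or 3 or anti-PD-L1 replicate 2 or 3 (edgeR adjusted p 0.0643 to 0.156). The causes were not tested.

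Of the 117 comparisons of the 9 tested members with other settings, 113 had an unchanged sign and call. Mmp13 turned to 0.0002 with DESeq2 and ran from -0.0944 to 0.1386 with 1 library left out, and Timp3 from -0.256 to 0.0658. Adamtsl3 turned to 0.0047 without a scaling factor and Areg to -0.0013 when every sample needed 10 counts. With 1 library left out, Adamtsl3 ran from -0.0317 to 0.0250, Areg from -0.0132 to 0.0242 and Pcolce from -0.126 to 0.0098. Bsg (adjusted p 0.0465), Fosb (0.000454), Fos, Vcan, Col1a2, Hbegf and Krt18 were called without a filter, and Thbs1, Dcn, Fn1 and Col1a1 both without a filter and with the block. Bsg ran from 0.0223 without anti-PD-L1 replicate 1 to 0.2256 without anti-PD-L1 replicate 3. Depth limits Mmp3, Mmp9 and Timp3.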
